A study of Mus musculus with 18 samples.

Results

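The genes described here code for the machinery that fills, docks, primes and fuses synaptic vesicles at the nerve terminal and recovers their membrane afterwards. The set was a list of 39 gene names grouped by function, and the counts of all transcripts under a name were added up. A gene was used when at least 5 reads were counted in at least 2 of the 18 libraries, which held for 37 of the 39 genes and for 13536 of the 35823 gene symbols in the table. *Slc17a6* and *Doc2a* did not reach this limit. The libraries came from brains of mice at the age of 10 months, 3 wild-type (WT) mice and 3 mice homozygous for *Atxn2*-CAG100-KIN, a knock-in of an expanded CAG repeat into the mouse *Atxn2* gene, on a C57BL/6 background. The knock-in allele sits in the gene itself, so it is carried by every cell of the animal rather than by 1 cell type. WT and KIN animals were littermates matched for sex within a pair, but the labels do not give the sex of a library, nor which libraries of different fractions came from the same brain. Microglia were taken out by magnetic beads against CD11b, astrocytes by beads against ACSA-2, and neurons as the cells left after removal of the non-neuronal cells and the endothelium, with 3 libraries for each fraction and genotype.

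At a synapse, a vesicle is filled with transmitter by a transporter in its membrane, tethered to the active zone by large scaffold proteins and made ready for release by priming factors. SNARE proteins of the vesicle and of the plasma membrane then zip together, complexins hold and assist the assembled complex, and synaptotagmins that bind calcium trigger fusion. The membrane is retrieved by endocytosis, in which dynamin pinches off the new vesicle, and the used SNARE complexes are taken apart by an ATPase. The mRNAs for this machinery are made chiefly in neurons, although single members such as *Syt11* and *Napa* serve membrane traffic in many cell types.

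The 18 libraries differed in depth. Total counts ran from 2118317 to 3296398 in the astrocyte and microglia libraries, from 1473194 to 2017932 in the KIN neuronal libraries and from 761481 to 1017972 in the WT neuronal libraries. Levels are given as CPM, the reads of a gene scaled to the total of its library, with the library sizes scaled by the trimmed mean of M values (TMM). The defining markers of the glial fractions were present where they belong, since the summed level of 8 astrocyte markers was 301 to 760 CPM in astrocyte libraries and at most 27.6 CPM elsewhere, and that of 8 microglia markers was 540 to 964 CPM in microglia libraries and at most 13.7 CPM elsewhere. The 15 neuron markers summed to 169 to 278 CPM in the neuronal libraries, but also to 104 to 227 CPM in the astrocyte libraries and 29.0 to 107 CPM in the microglia libraries. Of the 15 neuron markers, 4 were called higher and 5 lower in WT neurons than in WT astrocytes. The WT means were 70.8 against 7.75 CPM for *Tubb3* and 35.6 against 18.0 CPM for *Thy1*, but 0.341 against 9.76 CPM for *Nrgn* and 2.42 against 13.3 CPM for *Camk2a*. Replicate 2 of the WT libraries stood apart in both glial fractions. Relative to the mean of the KIN libraries, on the log2 scale, the median member lay 0.37 higher in WT astrocyte replicate 2, against 1.30 and 1.28 in the other WT astrocyte libraries, and 0.03 higher in WT microglia replicate 2, against 1.03 and 1.19 in the others.

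**Figure D1:**
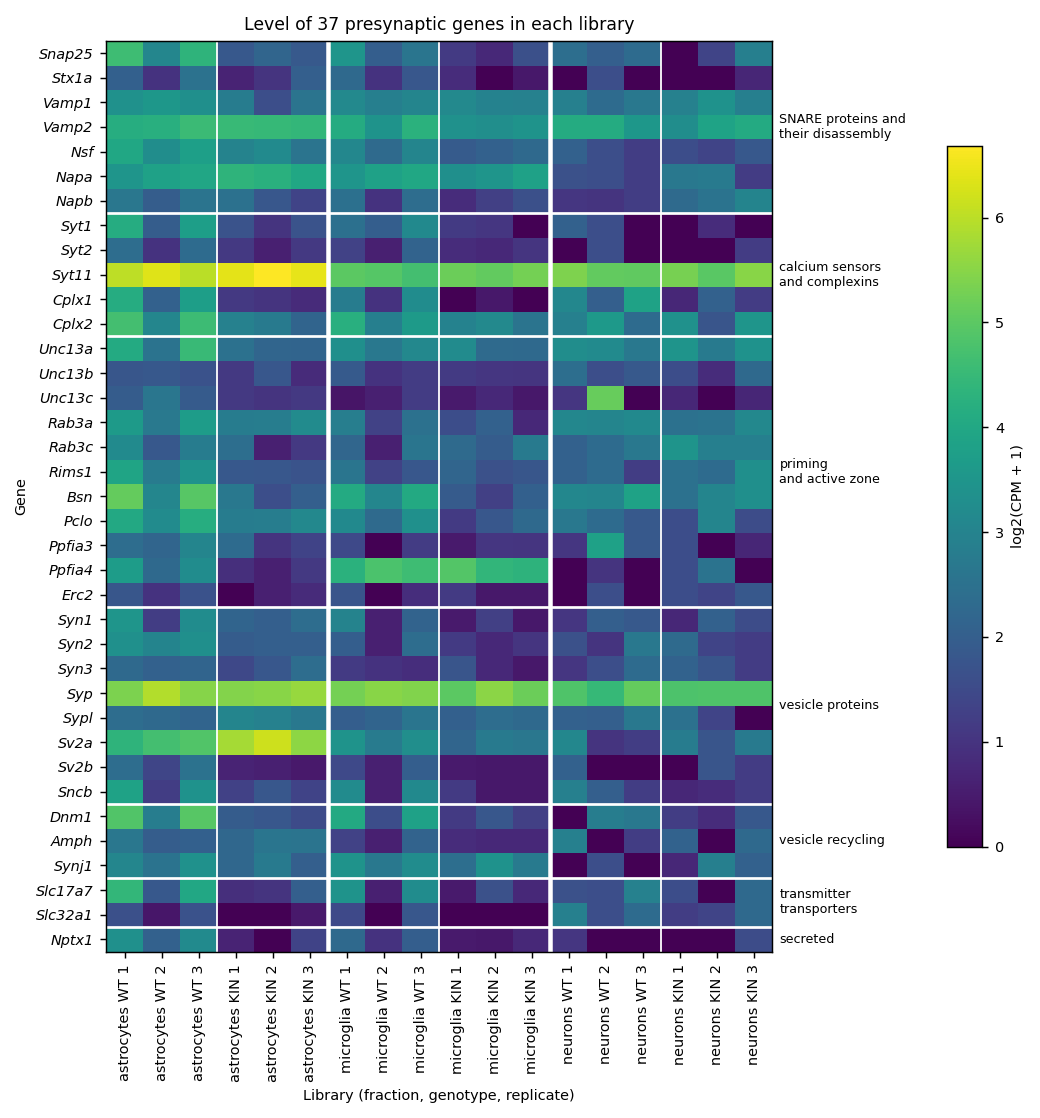
Level of the 37 genes in each of the 18 libraries, as log2(CPM + 1), with genes in rows ordered by role and libraries in columns ordered by fraction and genotype. WT replicates 1 and 3 of astrocytes each lie above every KIN astrocyte library for 29 of 37 genes and WT replicate 2 for 19, while *Syp*, *Syt11* and *Vamp2* are well above 0 in all 18 libraries.

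The members were not highest in the neuronal fraction. Of the 37 genes, 29 had their highest WT mean in astrocytes, 5 in neurons and 3 in microglia. Among the 5, *Unc13c* (1.08, 33.8 and 0 CPM) and *Ppfia3* (1.08, 13.3 and 2.68 CPM) rested on WT neuronal replicate 2. The matching shares of all genes were not determined. In WT mice, 14 of 37 members were lower in the neuronal than in the astrocyte fraction by the quasi-likelihood test of edgeR, where 12.4% of all genes tested were called lower, and 1 member was higher, where 6.95% were. A gene was called, here and in what follows, when its adjusted *p* did not exceed 0.05 and its log2 fold change was 1 or more in either direction. The median log2 difference of the members was -1.22, and that of all genes was -0.32. Against WT microglia, 3 of 33 members tested were lower and 1 was higher in WT neurons, with 12.4% and 6.83% of all genes in these directions. WT astrocytes had 10 members higher and 1 lower than WT microglia, out of 37, with 13.8% and 13.3% of all genes. Without WT astrocyte replicate 1 or 3 only 9 members were lower in neurons than in astrocytes, beside 11.9% and 11.8% of all genes. DESeq2 called 7 lower and none higher, beside 7.08% and 4.97% of all genes. With the replicate number as a block 11 were lower and none higher, beside 9.79% and 5.5%. Without WT astrocyte replicate 1, 6 members were higher in astrocytes than in microglia, and without replicate 2, 19 were, beside 12.4% and 13.8% of all genes called higher in these fits. These 3 comparisons share their WT libraries. Fewer cells of a type and less RNA per cell cannot be told apart in such bulk libraries.

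The gene with the sharpest order of fractions was *Ppfia4*, liprin-alpha-4, a scaffold that links active zone proteins. It lay at 18.3, 26.6 and 23.3 CPM in WT microglia, at 12.0, 3.89 and 8.44 CPM in WT astrocytes and at 0, 1.02 and 0 CPM in WT neurons, so that the 3 fractions did not overlap. Only 1 read in all was counted in WT neurons against 170 in WT microglia, a pooled ratio of 58.3 with a 95% counting interval from 10.3 to 2320. *Synj1*, the phosphatase that strips clathrin from recovered vesicles, was lower in neurons than in both glial fractions, by 3.04 on the log2 scale against astrocytes (adjusted *p* = 0.00328) and by 3.18 against microglia (adjusted *p* = 0.00255), the first of which DESeq2 did not call (adjusted *p* = 0.0523). *Napa*, the adaptor alpha-SNAP that brings the ATPase NSF to used SNARE complexes, was lower by 2.58 and 2.57 in these comparisons. *Unc13c*, the member of the Munc13 priming factors known from cerebellar granule cells, was the 1 gene called higher in WT neurons than in WT astrocytes, but 33 of its 34 reads there came from WT neuronal replicate 2, and without that library its difference turned from 1.88 to -2.4 (adjusted *p* = 0.157 in edgeR), and no member was called higher. In the same library the oligodendrocyte markers summed to 272 CPM, against 23.7 and 22.8 CPM in the other WT neuronal libraries, and their part in the result was not tested. *Ppfia3*, liprin-alpha-3, was the 1 gene called higher in WT neurons than in WT microglia, with 1.08, 13.3 and 2.68 CPM in WT neurons, again the highest in replicate 2. That call was lost without WT microglia replicate 2, with DESeq2 and with the replicate number as a block. *Ppfia3* was too low to be tested without WT neuronal replicate 2 or WT microglia replicate 1. The call of *Unc13c* was also lost with DESeq2 and with the block.

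Comparing KIN with WT mice asked how the knock-in changed these transcripts in each fraction. The members were chosen with earlier results of these data known, so their shares beside all genes are a description and not an independent test. In astrocytes all 37 members were tested, 17 fell and 1 rose, which is 45.9% called lower beside 6.41% of all 11738 genes tested, and 1 called higher beside 2.43%. The median log2 difference of the members was -1.26 against 0 for all genes, and 31 of 37 members had a negative difference. In microglia 32 members were tested and 7 fell, or 21.9%, beside 0.777% of all 10815 genes tested. None rose in microglia with edgeR, where 0.74% of all genes did, none had a higher level at an unadjusted *p* under 0.05, and none rose with DESeq2. The median log2 difference in microglia was -1.17, with 28 of 32 negative. In neurons 19 members were tested and edgeR called none lower and none higher, beside 0.0148% and 0% of all genes. At an unadjusted *p* under 0.05, 1 member was lower and 1 higher in neurons, and DESeq2 called 0. The median in neurons was -0.18, against 0.04 for all genes, and it changed sign to 0.26 without WT replicate 1 and to 0.03 without KIN replicate 2. There the smallest adjusted *p* of a member was 0.508.

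**Figure D2:**
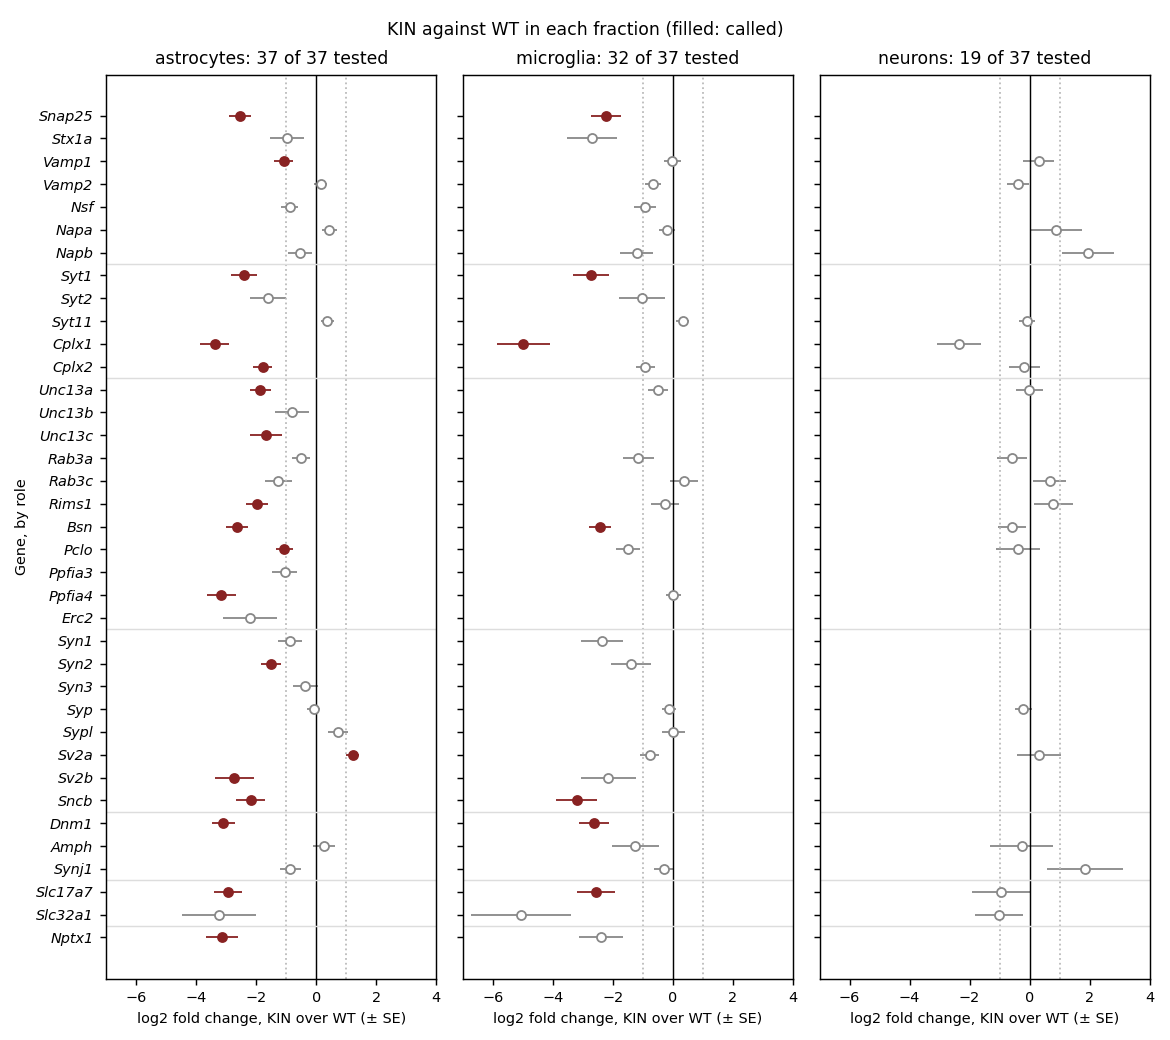
Log2 fold change of KIN against WT with its standard error for each gene tested, in 3 panels for astrocytes, microglia and neurons, with genes grouped by role and filled symbols for calls. In astrocytes 17 filled symbols lie below 0 and 1, *Sv2a*, above it; in microglia 7 lie below 0, and in neurons there is none.

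These counts rested unevenly on the libraries. Leaving out WT replicate 2 raised the number called lower in astrocytes from 17 to 24, and in microglia from 7 to 14, while the share of all genes called lower rose to 9.25% and 2.13%. In microglia the number was 2 without WT replicate 1, 3 without WT replicate 3, and 2, 3 and 2 without KIN replicates 1, 2 and 3, beside 0.125% to 0.258% of all genes. In astrocytes it stayed between 15 and 17 in the other 5 cases, beside 3.7% to 5.01% of all genes. DESeq2 called 11 members lower in astrocytes and 3 in microglia, beside 2.18% and 0.139% of all genes. The 3 KIN libraries lay below all 3 WT libraries for 17 of 37 members in astrocytes, beside 14.1% of all genes, and above them for 4, beside 13.8%. In microglia they lay below for 11 of 32 members, beside 7.62%, and above for 1, beside 8.4%. In neurons they lay below for none of 19 members, beside 2.19%, and above for 2, beside 11.7%, which were *Rab3c* and *Napb*.

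Single genes also leaned on single libraries. In astrocytes 11 of the 18 called members were called in every alternative that could be fitted, *Bsn*, *Cplx1*, *Cplx2*, *Dnm1*, *Nptx1*, *Ppfia4*, *Rims1*, *Snap25*, *Sv2a*, *Syt1* and *Unc13a*. The call was lost for *Pclo* without WT replicate 1, WT replicate 3 or KIN replicate 1, at -0.97, -0.87 and -0.97, and for *Vamp1* without WT replicate 2, KIN replicate 2 or KIN replicate 3, at -1.0, -0.83 and -1.13. It was lost for *Unc13c* without WT replicate 2 or any 1 of the KIN replicates, at -1.32 to -1.69, for *Sv2b* without WT replicate 3, at -2.46, and for *Sncb* without WT replicate 1, at -1.67. With DESeq2 the calls of *Vamp1*, *Unc13c*, *Sv2b*, *Pclo*, *Slc17a7* and *Sncb* were lost in astrocytes, at adjusted *p* values from 0.0688 for *Sv2b* to 0.225 for *Sncb*. *Syn2* was lost by transcripts (adjusted *p* = 0.133) and with coding transcripts only (adjusted *p* = 0.188), as was *Pclo* (0.0543 and 0.0905), while *Vamp1* and *Unc13c* were lost by transcripts. In microglia only *Bsn* and *Cplx1* were called in every alternative that could be fitted. There *Snap25* was lost without WT replicate 1 or any 1 of the KIN replicates (-2.71 to -1.59), *Syt1* without WT replicate 3 or any 1 of the KIN replicates (-3.18 to -2.15), *Dnm1* without WT replicate 1, KIN replicate 1 or KIN replicate 3 (-2.49 to -2.19), *Slc17a7* without any 1 of the libraries other than WT replicate 2 (-3.47 to -2.07), and *Sncb* without any 1 of the KIN replicates (-3.92 to -2.91). With DESeq2 *Snap25*, *Syt1*, *Slc17a7* and *Sncb* were lost in microglia, at adjusted *p* values from 0.0859 for *Sncb* to 0.756 for *Slc17a7*, and by transcripts *Snap25*, *Syt1*, *Dnm1* and *Slc17a7*. The direction stayed negative in all of these.

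The counts by role that follow are small and stand beside 6.41% of all genes called lower in astrocytes and 0.777% in microglia. The SNARE proteins and the factors that take them apart gave 2 of 7 genes called lower in astrocytes, with a median log2 difference of -0.88, and 1 of 7 in microglia. *Snap25* (chr2:136533580-136624362 in GRCm39, plus strand) codes for the SNARE of the plasma membrane that pairs with syntaxin. Its level was 23.6, 7.45 and 19.4 CPM in WT and 2.58, 3.57 and 2.67 CPM in KIN astrocytes, and 10.2, 2.96 and 5.09 CPM in WT and 1.19, 0.712 and 2.10 CPM in KIN microglia. All KIN libraries lay below all WT libraries in both fractions, and WT replicate 2 was the lowest of the WT libraries in both. *Snap25* fell by 2.54 (SE 0.352, adjusted *p* = 1.59e-06) on the log2 scale in astrocytes and by 2.23 (SE 0.496, adjusted *p* = 0.0173) in microglia. *Vamp1*, a vesicle SNARE best known from spinal cord and brainstem, was at 9.52, 10.7 and 9.06 CPM in WT and 6.03, 2.04 and 4.97 CPM in KIN astrocytes. It fell there by 1.08 (SE 0.314, adjusted *p* = 0.0157), without overlap, and its WT replicate 2 was the highest WT library. In microglia *Vamp1* ranged from 6.41 to 7.92 CPM over both genotypes, with a difference of -0.02.

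Its paralogue *Vamp2*, the main vesicle SNARE of the forebrain, did not follow. *Vamp2* was at 16.9, 17.5 and 22.5 CPM in WT and 21.8, 21.4 and 20.6 CPM in KIN astrocytes, overlapping between genotypes, with a log2 difference of 0.15 (adjusted *p* = 0.744). In microglia it was 16.2, 9.86 and 18.2 CPM in WT and 9.51, 8.91 and 9.79 CPM in KIN, lower in every KIN library but not called, at -0.66. The syntaxin *Stx1a*, the other SNARE of the plasma membrane, had 21 reads in WT and 3 in KIN microglia and was called in neither fraction. Among the disassembly factors, *Nsf*, the ATPase itself, had a difference of -0.88 in astrocytes with an adjusted *p* of 0.0323, which passed the test but not the fold limit, and *Napa* one of 0.44 (adjusted *p* = 0.249). *Napa* was at 10.2, 13.3 and 14.4 CPM in WT and 19.2, 17.8 and 14.9 CPM in KIN astrocytes, so that every KIN library lay above the WT libraries. *Napb*, the adaptor beta-SNAP of the brain, had a difference of -0.53 in astrocytes.

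Of the calcium sensors and complexins, 3 of 5 fell in astrocytes, with a median of -1.79, and 2 of 5 in microglia. *Cplx1* (chr5:108666416-108697899, minus strand), complexin 1, which clamps and promotes fusion of primed vesicles, was at 16.6, 3.24 and 12.5 CPM in WT and at 1.15, 1.02 and 0.764 CPM in KIN astrocytes. In microglia its reads were 20, 2 and 20 in WT and 0, 1 and 0 in KIN. No KIN library reached a WT library in either fraction, although WT replicate 2 lay close to the KIN libraries in both. *Cplx1* fell by 3.39 (SE 0.482, adjusted *p* = 2.4e-06) in astrocytes. The fitted difference in microglia was -4.99 (SE 0.882, adjusted *p* = 0.00311), and with only 1 KIN read the pooled WT to KIN ratio of 44.5 had a 95% counting interval from 7.57 to 1800. *Cplx1* also had the smallest *p* of the members in neurons, where its level was 7.55, 3.07 and 13.4 CPM in WT and 0.667, 3.23 and 1.29 CPM in KIN libraries. These groups overlapped through WT replicate 2 and KIN replicate 2, and the difference of -2.37 (SE 0.733) was not called, with an adjusted *p* of 0.508.

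*Cplx2*, the complexin of the forebrain and a paralogue of *Cplx1*, was at 24.7, 7.45 and 22.8 CPM in WT and 6.60, 5.61 and 3.44 CPM in KIN astrocytes, just without overlap, and fell by 1.79 (SE 0.320, adjusted *p* = 9.56e-05). In microglia it was at 17.7, 6.41 and 11.4 CPM in WT and 6.74, 7.84 and 4.90 CPM in KIN libraries, with overlap and no call. *Syt1* (chr10:108333505-108846856, minus strand), synaptotagmin 1, is the fast calcium sensor of most forebrain synapses. Its astrocyte levels were 16.6, 2.92 and 12.5 CPM in WT and 2.30, 1.02 and 2.29 CPM in KIN, and its microglia levels 4.49, 2.96 and 8.06 CPM in WT and 1.19, 1.07 and 0 CPM in KIN. Both fractions were without overlap between genotypes. *Syt1* fell by 2.41 (SE 0.429, adjusted *p* = 8.88e-05) and by 2.74 (SE 0.602, adjusted *p* = 0.0163). *Syt2*, the fast sensor of brainstem and inhibitory terminals, had a difference of -1.61 in astrocytes with an adjusted *p* of 0.063.

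*Syt11*, a synaptotagmin that lacks calcium-triggered fusion activity and acts in membrane retrieval and in traffic of other cells, stood at the other end. It was at 63.5, 80.7 and 63.1 CPM in WT and 83.8, 102 and 85.6 CPM in KIN astrocytes, and at 31.1, 29.6 and 24.6 CPM in WT and 35.7, 33.1 and 37.8 CPM in KIN microglia. All KIN libraries lay above all WT libraries in both fractions, but the differences of 0.37 (adjusted *p* = 0.266) and 0.32 were not called. In WT mice *Syt11* was higher in astrocytes than in microglia by 1.23 on the log2 scale. *Syt11* overlaps *Rit1* and *Gm66963* on the other strand by 1036 exonic bases.

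**Figure D3:**
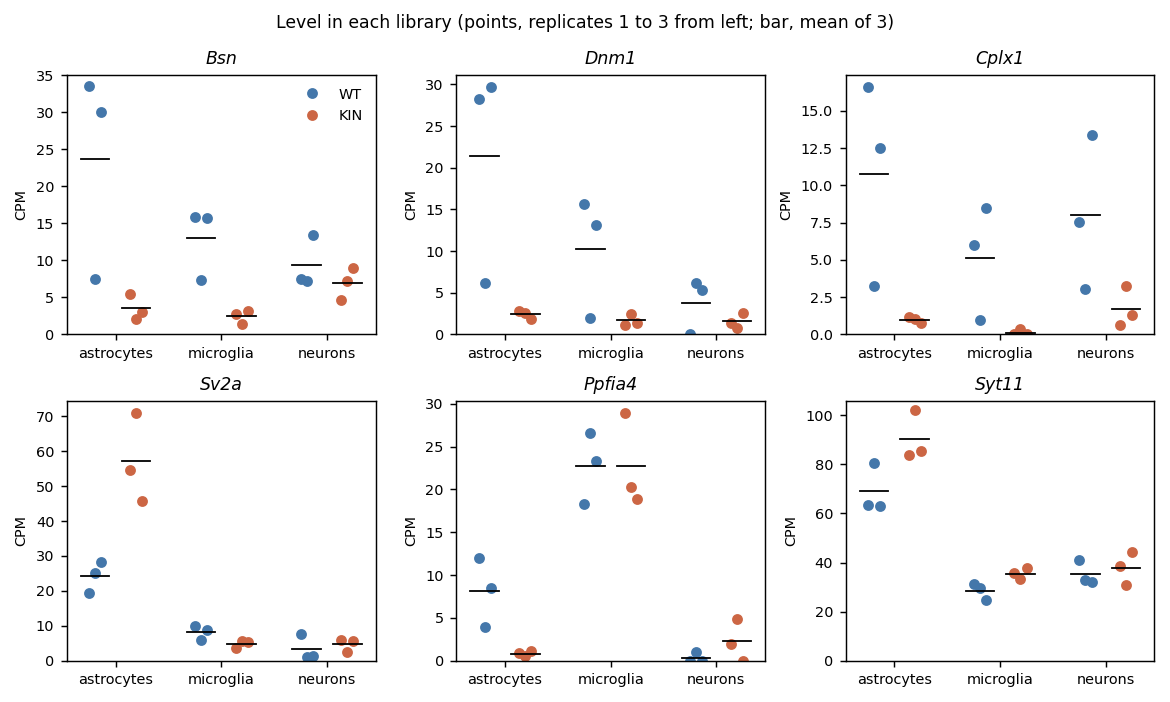
Level in CPM of *Bsn*, *Dnm1*, *Cplx1*, *Sv2a*, *Ppfia4* and *Syt11* in each library, with a point per library, a bar at the group mean and WT and KIN side by side in each fraction. *Bsn*, *Dnm1* and *Cplx1* are low in the KIN glial libraries, *Ppfia4* is low in KIN astrocytes but not in KIN microglia, and *Sv2a* is high in KIN astrocytes, at 45.8 to 70.9 CPM.

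Of the priming factors and active zone scaffolds, the role with the most members, 6 of 11 were lower in astrocytes, with a median of -1.67. In microglia 1 of 7 fell, with a median of -0.50. *Bsn* (chr9:107973221-108067629, minus strand) codes for Bassoon, a giant scaffold of the active zone. Its level was 33.5, 7.45 and 30.0 CPM in WT and 5.45, 2.04 and 3.06 CPM in KIN astrocytes, and 15.9, 7.39 and 15.7 CPM in WT and 2.77, 1.42 and 3.15 CPM in KIN microglia. There was no overlap in either fraction, and WT replicate 2 was again the lowest WT library. *Bsn* fell by 2.64 (SE 0.359, adjusted *p* = 1.29e-06) in astrocytes and by 2.42 (SE 0.363, adjusted *p* = 0.000401) in microglia, and it kept its call in each of the 16 alternatives in both fractions. Its close relative *Pclo*, Piccolo, fell less, by 1.06 (SE 0.286, adjusted *p* = 0.0092) in astrocytes, from 15.5, 8.42 and 16.9 CPM to 6.03, 6.12 and 7.64 CPM. In microglia *Pclo* had a difference of -1.49 (adjusted *p* = 0.0593), not called.

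*Ppfia4* (chr1:134223169-134260666, minus strand) was at 12.0, 3.89 and 8.44 CPM in WT and 0.861, 0.510 and 1.15 CPM in KIN astrocytes. It fell there by 3.16 (SE 0.479, adjusted *p* = 6.4e-06), with no overlap. In microglia, where its WT level was higher, it was at 28.9, 20.3 and 18.9 CPM in KIN libraries, which overlapped the WT libraries, and its difference was 0.01 (SE 0.251, adjusted *p* = 0.996). *Rims1*, the Rab3-binding organiser of the active zone, was at 14.1, 5.83 and 9.69 CPM in WT and 2.58, 2.55 and 2.29 CPM in KIN astrocytes, without overlap, and fell by 1.98 (SE 0.364, adjusted *p* = 0.000147). In microglia its difference was -0.27. Of the Munc13 priming factors, *Unc13a*, the main isoform of excitatory synapses, was at 15.9, 4.86 and 22.2 CPM in WT and 4.59, 3.57 and 3.44 CPM in KIN astrocytes. It fell by 1.86 (SE 0.354, adjusted *p* = 0.000216), and the lowest WT library was barely above the highest KIN library. *Unc13c* fell from 2.82, 5.18 and 2.81 CPM in WT to 1.15, 1.02 and 1.15 CPM in KIN astrocytes, by 1.67 (SE 0.522, adjusted *p* = 0.0257), without overlap. *Unc13b*, another isoform of wide expression, had a difference of -0.80 that was not called. *Ppfia3*, the paralogue of *Ppfia4*, had a difference of -1.05 in astrocytes (adjusted *p* = 0.095), and the active zone protein *Erc2*, with 17 reads in WT and 3 in KIN astrocytes, one of -2.20 (adjusted *p* = 0.105), neither of them called. The vesicle GTPases *Rab3a* and *Rab3c*, which bind RIM and Rabphilin, had differences of -0.51 and -1.26 (adjusted *p* = 0.0532) in astrocytes and were not called. The main coding transcript of *Rab3c* was called lower in astrocytes when tested by itself, at -1.51 (SE 0.497, adjusted *p* = 0.0338). *Unc13a* overlaps its antisense neighbour *Colgalt1* by 2758 exonic bases, and since reads were counted without strand, reads of both genes over these bases cannot be told apart. The same holds for *Bsn* over 1449 exonic bases of *F630040L22Rik* and *Gm57046* on the other strand.

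Among the vesicle proteins, 3 of 8 fell and 1 rose in astrocytes, with a median of -0.62, and 1 of 7 fell in microglia. *Sv2a* (chr3:96088467-96106005, plus strand), a glycoprotein of the vesicle membrane that keeps vesicles ready for release, was the 1 member that rose. It was at 19.4, 25.0 and 28.4 CPM in WT and at 54.5, 70.9 and 45.8 CPM in KIN astrocytes, so that the lowest KIN library was far above the highest WT library. The rise was 1.21 on the log2 scale (SE 0.220, adjusted *p* = 0.000134), or 2.31-fold, and was called in each of 16 alternatives, at 1.01 to 1.34. In microglia *Sv2a* was at 9.88, 5.92 and 8.90 CPM in WT and 3.57, 5.7 and 5.25 CPM in KIN libraries, all KIN libraries below the WT libraries but with no call, at -0.78 (SE 0.314, adjusted *p* = 0.278). When edgeR tested transcripts, the increase in astrocytes was seen in its coding transcript (1.01, adjusted *p* = 0.00249). It was also seen in a transcript without a defined coding sequence (1.47, adjusted *p* = 8.64e-05 in edgeR). *Sv2a* overlaps *Bola1* on the other strand by 880 exonic bases. Its paralogue *Sv2b* had the opposite direction, with 4.23, 1.62 and 4.69 CPM in WT and 0.574, 0.510 and 0.382 CPM in KIN astrocytes, and fell by 2.73 (SE 0.648, adjusted *p* = 0.00279).

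*Syn2*, synapsin II, which tethers the reserve pool of vesicles, was at 9.17, 7.13 and 9.06 CPM in WT and 2.87, 3.06 and 3.06 CPM in KIN astrocytes. Its groups were well apart, WT replicate 2 was close to the other WT libraries, and it fell by 1.5 (SE 0.338, adjusted *p* = 0.00159). *Syn1*, synapsin I, was at 10.2, 1.30 and 8.44 CPM in WT and 3.44, 3.06 and 4.20 CPM in KIN astrocytes, where WT replicate 2 lay below every KIN library and the difference of -0.88 was not called (adjusted *p* = 0.152). *Syn3* had a difference of -0.36. Reads of genes on the other strand cannot be separated over 1431 exonic bases of *Syn2* (*Timp4*, *Gm17733*) and 4855 of *Syn3* (*Timp3*, *Fbxo7*). *Sncb*, beta-synuclein, a vesicle-associated protein of the terminal, was at 13.4, 1.30 and 9.69 CPM in WT and 1.44, 2.55 and 1.53 CPM in KIN astrocytes, and at 8.39, 0.493 and 8.06 CPM in WT and 1.19, 0.356 and 0.350 CPM in KIN microglia. *Sncb* fell by 2.19 (adjusted *p* = 0.00103) and by 3.20 (adjusted *p* = 0.0137), although WT replicate 2 overlapped the KIN libraries in both fractions. *Sypl*, the synaptophysin-like protein of many tissues, was above the WT range in every KIN astrocyte library, at 7.18, 6.63 and 5.35 CPM against 4.23, 3.89 and 3.44 CPM, with a difference of 0.72 (adjusted *p* = 0.161).

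Of the endocytosis genes, *Dnm1* (chr2:32197854-32243376, minus strand), dynamin 1, the neuronal GTPase that cuts off the new vesicle, fell in both glial fractions. It was at 28.2, 6.16 and 29.7 CPM in WT and 2.87, 2.55 and 1.91 CPM in KIN astrocytes, and at 15.6, 1.97 and 13.1 CPM in WT and 1.19, 2.49 and 1.40 CPM in KIN microglia. The astrocyte groups did not overlap, while in microglia WT replicate 2 lay within the KIN range. The fall was 3.1 (SE 0.390, adjusted *p* = 4.52e-07) in astrocytes and 2.62 (SE 0.499, adjusted *p* = 0.00628) in microglia. The other genes of this step did not pass in astrocytes, *Synj1* with a difference of -0.86 (adjusted *p* = 0.0895) and *Amph*, amphiphysin, which senses membrane curvature and recruits dynamin, with 0.25.

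The transmitter transporters mark what a terminal releases. *Slc17a7*, the vesicular glutamate transporter of cortex, hippocampus and cerebellar granule cells, was at 20.4, 2.59 and 15.0 CPM in WT and 0.861, 1.02 and 3.06 CPM in KIN astrocytes, and at 9.88, 0.493 and 8.48 CPM in WT and 0.396, 2.14 and 0.699 CPM in KIN microglia. It fell by 2.94 (adjusted *p* = 1.8e-05) and by 2.56 (adjusted *p* = 0.0321), with WT replicate 2 inside the KIN range in both fractions. *Slc32a1*, the transporter for GABA and glycine, had 14 reads in WT and 1 in KIN astrocytes, a pooled ratio of 12.4 with a 95% counting interval from 1.88 to 523. In microglia it had 12 reads in WT and 0 in KIN, at least 4.24-fold lower when the KIN group is set to a floor of 3 reads over the group. Neither difference was called. *Slc17a6*, the glutamate transporter of thalamus and brainstem, was not tested, and had 7, 1 and 4 reads in WT and 0, 0 and 0 in KIN astrocytes, at least 3.53-fold lower against the same floor. *Nptx1*, neuronal pentraxin 1, a secreted protein that gathers AMPA receptors at synapses, was at 9.17, 3.24 and 8.12 CPM in WT and 0.574, 0 and 1.53 CPM in KIN astrocytes, without overlap, and fell by 3.14 (SE 0.525, adjusted *p* = 3.1e-05). Its difference of -2.39 in microglia was not called (adjusted *p* = 0.102).

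All 7 members called lower in microglia were among the 17 called lower in astrocytes, which is 100% of the shorter and 41.2% of the longer list. They were *Snap25*, *Syt1*, *Cplx1*, *Bsn*, *Dnm1*, *Slc17a7* and *Sncb*. How many of all genes were called lower in both fractions was not determined, so this overlap cannot be read as particular to the members. For none of the 7 did the interaction term of edgeR call a difference of the KIN effect in microglia from that in astrocytes, with adjusted *p* values from 0.633 for *Cplx1* to 0.938 for *Bsn*. The precision of these differences was limited, since the 95% interval for *Bsn* ran from -1.04 to 1.45 and that for *Cplx1* from -4.14 to 0.86 on the log2 scale.

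The KIN effect did differ between fractions for a few members. Between microglia and astrocytes, 1 of 37 members had a higher KIN effect in microglia, beside 0.769% of all genes, and 1 a lower, beside 0.392%. *Sv2a* rose in astrocytes and not in microglia, a difference of -1.99 (SE 0.411, adjusted *p* = 0.00331) that was called in 23 of 23 alternatives. *Ppfia4* fell in astrocytes and not in microglia, a difference of 3.16 (SE 0.563, adjusted *p* = 0.000608) called in 22 of 23. Between neurons and astrocytes, 3 of 37 members had a higher effect in neurons, beside 0.915% of all genes, and none a lower, where 0.251% of all genes were called lower, 1 member had an unadjusted *p* under 0.05 and DESeq2 called none. These were *Rims1* with 2.95 (SE 0.738, adjusted *p* = 0.0182), *Bsn* with 2.25 (SE 0.597, adjusted *p* = 0.029) and *Ppfia4* with 5.44 (SE 1.32, adjusted *p* = 0.0133), and the last rests on 1 read in WT neurons. The median difference of all genes in this comparison was 0.28 with TMM and 0.12 with the size factors of DESeq2. None of the 3 was called with DESeq2, at adjusted *p* values of 0.211, 0.378 and 0.193. *Rims1* was called in 15 of 23 alternatives, *Bsn* in 10 of 23 and *Ppfia4* in 17 of 22. *Bsn* was also lost with the size factors of DESeq2 in edgeR (adjusted *p* = 0.0583) and with all 18 libraries in one fit (adjusted *p* = 0.0531). The number called higher in neurons ranged from 0 without WT astrocyte replicate 1, beside 0.384% of all genes, to 6 without WT astrocyte replicate 2, beside 1.91%. It was 1 without WT replicate 3 or KIN replicate 3 of astrocytes or without KIN replicate 2 or 3 of neurons, beside 0.21% to 1.1%. It was 2 without KIN replicate 2 of astrocytes or without WT replicate 1 or 3 of neurons, beside 0.334% to 0.78%. Leaving out WT astrocyte replicate 2 also raised the number with a higher effect in microglia from 1 to 2, beside 1.49% of all genes. Between neurons and microglia edgeR called none of 35 members higher or lower, beside 0.0346% and 0.0433% of all genes, DESeq2 called none, and 5 members had an unadjusted *p* under 0.05, all higher in neurons.

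In neurons themselves, *Bsn* was at 7.55, 7.17 and 13.4 CPM in WT and 4.67, 7.27 and 9.00 CPM in KIN libraries, and *Rims1* at 3.24, 4.09 and 1.34 CPM in WT and 4.67, 4.04 and 9.00 CPM in KIN libraries. Both overlapped between genotypes. *Snap25* had only 4, 3 and 3 reads in WT and 0, 2 and 10 in KIN neuronal libraries and was too low to be tested. A single read was worth 1.02 to 1.34 CPM in the WT neuronal libraries. *Napb*, at 1.08, 1.02 and 1.34 CPM in WT and 4.0, 4.84 and 7.07 CPM in KIN libraries, had a difference of 1.94 and was the 1 member that was higher before adjustment (unadjusted *p* = 0.0305 in edgeR). *Rab3c* was at 3.24, 4.09 and 5.36 CPM in WT and 10.0, 6.46 and 6.43 CPM in KIN libraries, with a difference of 0.66. In both genes every KIN library lay above the WT libraries, as was so for 11.7% of all genes tested in neurons. *Napb* had 1 read in each WT neuronal library.

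*Syp*, synaptophysin (chrX:7504710-7519499, plus strand), the most widely used marker of vesicles, did not fall as a gene sum. It was at 40.5, 59.0 and 43.7 CPM in WT and 42.5, 44.4 and 49.7 CPM in KIN astrocytes, with a difference of -0.09 (adjusted *p* = 0.856). Of its reads, 91.8% were assigned to a transcript annotated with a retained intron, which was at 31.0, 56.7 and 35.9 CPM in WT and 39.3, 43.3 and 45.8 CPM in KIN astrocytes. The coding transcript was at 8.81, 1.94 and 6.56 CPM in WT and 2.87, 1.02 and 3.44 CPM in KIN astrocytes, where WT replicate 2 was within the KIN range. Tested as a transcript, the coding form fell by 1.19 (SE 0.409, adjusted *p* = 0.0443) in astrocytes, and in microglia its difference was -1.97 (adjusted *p* = 0.115). The locus overlaps *Gm14703* on the other strand by 1037 exonic bases, which counting without strand cannot separate.

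**Figure D4:**
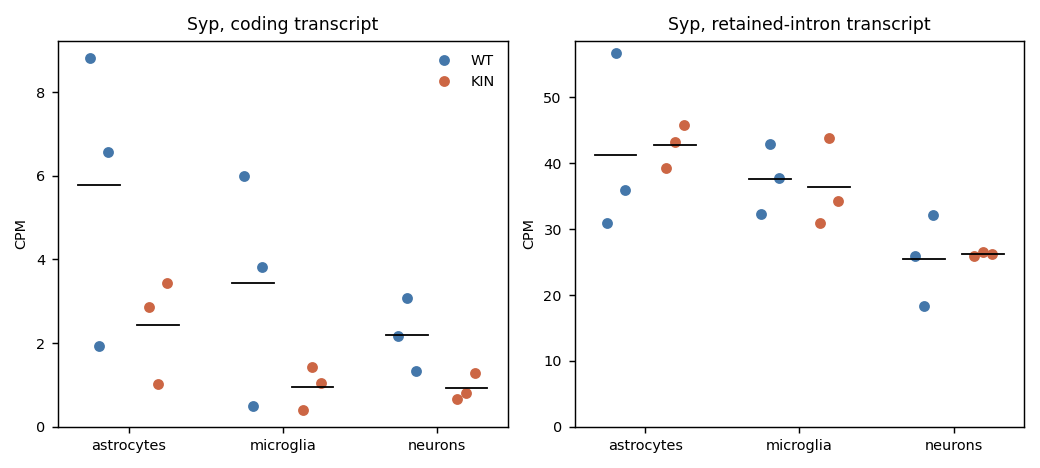
Level in CPM of the coding and the retained-intron transcript of *Syp* in each library, with WT and KIN side by side in each fraction. The retained-intron transcript lies at 31.0 to 56.7 CPM in astrocytes with both genotypes mixed, while the coding transcript lies at 1.94 to 8.81 CPM in WT and 1.02 to 3.44 CPM in KIN astrocytes.

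Over all members, 69.0% of the reads were assigned to coding transcripts and 21.2% to transcripts with a retained intron. By transcript, 71 transcripts of 32 members were tested in astrocytes, 30 of 16 members fell and 2 rose, beside 5.75% and 2.62% of all transcripts. In microglia 38 transcripts of 24 members were tested, 4 fell and none rose, beside 0.418% and 0.496% of all transcripts. The 4 were those of *Bsn*, *Cplx1* and *Sncb* and 1 of *Vamp2* annotated for nonsense-mediated decay, which fell by 1.81 (SE 0.425, adjusted *p* = 0.023). In neurons 15 transcripts of 12 members were tested and edgeR called none, where 0.0181% of all transcripts were lower and 0% higher.

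The start regions of the members were read from RefSeq on GRCm38.p6, as 300 bases with 250 before and 50 after the start, which the table held for 34 of the 39 genes. *Snap25*, *Vamp2*, *Syn3*, *Nptx1* and *Doc2a* were not listed. Both strands were searched for the left part of RE1, the element bound by the repressor REST that keeps neuronal genes off in other cells, spelled TTCAGCACC (GGTGCTGAA on the other strand). It was found in *Unc13a*, *Syn1* and *Ppfia3*, 3 of the 34, and in 0.433% of 27025 symbols. Only 1 of these 3, *Unc13a*, was among the genes called lower in astrocytes. The cAMP response element, spelled TGACGTCA, was in *Syn1* and *Napa*, against 2.03% of symbols, and neither was called. The GC box, GGGCGG on 1 strand or its complement CCGCCC, was in 27 of 34 members and in 13 of the 15 with a start region that were called lower, against 38.2% of symbols. The matches of RE1 and of the cAMP response element did not overlap each other. The 4 stretches are shown because they hold each match of the 2 rarer motifs, which are in capitals:
Unc13a, chr8:71671716-71671745, minus strand, 22 bases past the start: ccgcgcccccGGTGCTGAAgcgacatggcc
Syn1, chrX:20921040-20921168, minus strand, 232 and 159 bases before the start: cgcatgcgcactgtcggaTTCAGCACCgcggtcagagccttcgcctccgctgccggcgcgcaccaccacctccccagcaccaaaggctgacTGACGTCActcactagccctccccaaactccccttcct
Ppfia3, chr7:45367027-45367095, minus strand, 46 bases before the start: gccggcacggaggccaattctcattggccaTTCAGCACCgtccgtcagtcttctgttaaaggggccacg
Napa, chr7:16098563-16098592, plus strand, 7 bases before the start: caggcctgggTGACGTCAacgcagcgggcg
A match is a description of the letters and says nothing of whether a factor binds there.

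Presynaptic genes outside the members were taken from a list of 78 names. In astrocytes 60 of these were tested, 13 (21.7%) fell and 1 rose, beside 6.41% and 2.43% of all genes, with a median of -0.49. Among those called, the 5 largest decreases were in *Nptxr*, the membrane receptor of the pentraxins, by 2.4 (adjusted *p* = 0.000181), *Rph3a*, the Rab3 effector Rabphilin, by 2.37 (adjusted *p* = 3.31e-05), *Syt7*, the slow calcium sensor, by 2.32 (adjusted *p* = 0.000292), *Syt13* by 2.19 (adjusted *p* = 0.044) and *Rimbp2*, which ties RIM to calcium channels, by 2.12 (adjusted *p* = 0.000253). The 1 that rose was *Syngr2*, a synaptogyrin found in many tissues, by 1.09 (adjusted *p* = 0.0266). In microglia 52 were tested and 2 (3.85%) fell, beside 0.777% of all genes, among them *Rims3*, a short member of the RIM family, by 2.46 (adjusted *p* = 0.0167). In neurons 32 were tested and edgeR called none, with 2 lower and 0 higher at an unadjusted *p* under 0.05.

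Markers of neurons moved in the same libraries. Of the 15 neuron markers, 10 fell in KIN astrocytes and none was called higher, beside 6.41% and 2.43% of all genes, with a median of -1.70, and 4 of 15 fell in KIN microglia, beside 0.777%. Not all went down, since *Tubb3* had means of 7.75 CPM in WT and 15.1 CPM in KIN astrocytes, with a difference of 0.92 (adjusted *p* = 0.0214) that passed the test but not the fold limit, and *Elavl3* had 18.1 and 27.7 CPM, at 0.61 (adjusted *p* = 0.0615). Of 13 tested in neurons, edgeR called none. Their summed level was 227, 116 and 194 CPM in WT and 111, 104 and 108 CPM in KIN astrocytes, and 107, 38.0 and 95.8 CPM in WT and 33.7, 32.8 and 29.0 CPM in KIN microglia. The sum of the 37 members was 509, 330 and 501 CPM in WT and 319, 342 and 306 CPM in KIN astrocytes, and 309, 193 and 303 CPM in WT and 181, 188 and 179 CPM in KIN microglia. WT replicate 2 was the lowest WT library in all of these sums, and its member sum lay within the KIN range in astrocytes. In the neuronal libraries the member sum was 203, 216 and 186 CPM in WT and 175, 168 and 209 CPM in KIN, with overlap. In astrocytes the 7 oligodendrocyte markers summed to 419 to 651 CPM in WT and 751 to 755 CPM in KIN libraries, with 2 of 7 called higher, and the 8 astrocyte markers to 512 to 760 CPM in WT and 301 to 319 CPM in KIN libraries, with 3 of 8 called lower. *Gfap*, the filament protein of reactive astrocytes, had means of 9.72 CPM in WT and 17.0 CPM in KIN astrocytes, at 0.8 (adjusted *p* = 0.0366), which passed the test but not the fold limit. In microglia the astrocyte markers summed to 24.2 to 27.6 CPM in WT and 16.4 to 19.6 CPM in KIN libraries, and the oligodendrocyte markers to 30.5 to 34.4 CPM in WT and 18.2 to 19.9 CPM in KIN libraries, both without overlap. There *Slc1a2*, an astrocyte glutamate transporter and 1 of 4 astrocyte markers tested, fell by 2.66 (adjusted *p* = 0.000401), and *Cldn5*, a tight junction protein and 1 of 3 endothelium markers tested, by 2.12 (adjusted *p* = 0.0137). The other astrocyte markers tested there were not called, *Slc1a3* at 0.2, *Sox9* at 0.22 and *Gja1* at -0.71. Nor were the other endothelium markers, *Pecam1* at 0.44 and *Flt1* at -0.22. Of the 8 microglia markers, 2 could be tested in astrocytes and edgeR called neither, with 1 lower at an unadjusted *p* under 0.05. Outside microglia the group means of *Aif1*, *Tmem119* and *P2ry12* were at most 0.266 CPM, while *Cx3cr1* reached 6.57 CPM in KIN neurons and was at 4.48 CPM in WT astrocytes, and *Csf1r* reached 2.66 CPM. The part of these markers in the differences of the members was not tested.

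**Figure D5:**
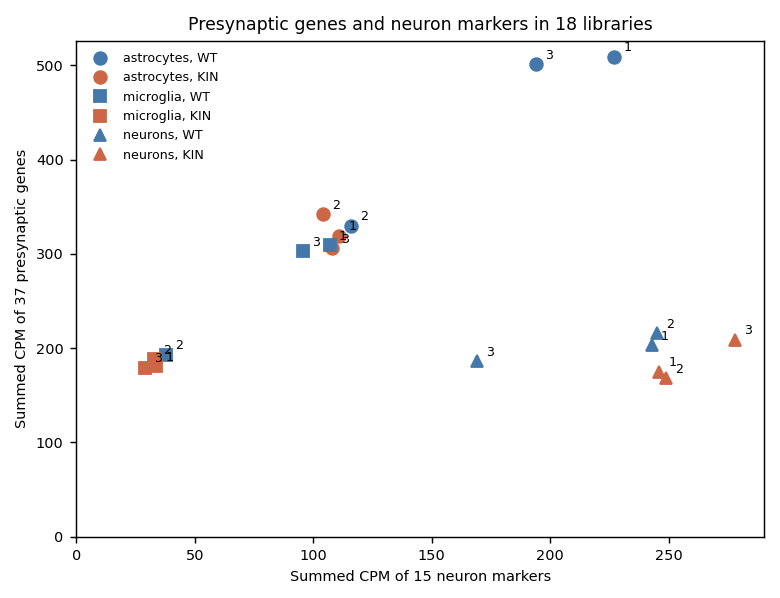
Summed level in CPM of the 37 members against that of the 15 neuron markers, with a point for each of the 18 libraries, circles, squares and triangles for astrocytes, microglia and neurons, blue for WT and red for KIN, and the replicate number beside each point. WT replicates 1 and 3 of astrocytes lie apart at the top, at 509 and 501 CPM, and WT replicate 2 lies near the KIN libraries, while the neuronal libraries have marker sums of 169 to 278 CPM and member sums of 168 to 216 CPM.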

How the data were processed

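RNA was sequenced at 3′ ends after rRNA depletion and poly(A) tailing. The deposited values are raw counts per transcript. The authors collapsed duplicates by molecular identifiers, trimmed with cutadapt 4.6, mapped with Bowtie2 2.4.4 to mm39 and counted with HTSeq 2.0.2 without strand. Another 36 columns of per-sample values, and the authors' own fold changes and *p* values, were not used here. Transcripts without a gene name, 137 with at most 0.031% of the counts of a library, were left out.

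Counts were summed by gene name. Genes that reached 5 reads in 2 or more of the libraries fitted were tested with edgeR 4.0.16 in R 4.3.3, with TMM scaling, the quasi-likelihood test and Benjamini-Hochberg adjustment over all genes. Genotypes were compared within the 6 libraries of a fraction, fractions over WT libraries, and KIN effects by interaction terms. SE was derived from the log2 fold change and its F statistic, intervals of log2 differences from the SE, and intervals of pooled read ratios from exact binomial limits. Intervals of ratios and floors cover counting error only. Replicates carry only numbers in the labels, and *p* values measure the spread between these libraries.

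The members and lists were chosen with earlier results of these data known. All members were named. Values of every library were given for called members (in astrocytes the 15 of largest fold change), for those called in an interaction and for the most abundant of each role, and others were added after their values were seen. Of the further presynaptic genes, up to 5 called each way were named, except for 1 that is not reported here. Alternatives were DESeq2 1.42.0, its size factors, TMM without the 50 most abundant genes, other filters, the adjusted *p* alone, thinned libraries, all 18 libraries in one fit, transcripts, the replicate number as a block and leaving out each library. The adjusted *p* alone drops the fold limit from the main fit, so it cannot lose a call, and it is counted among the alternatives. Coding transcripts alone, and leaving out WT replicate 2 of both glial fractions, were chosen after seeing the data. The tests were tried on simulated counts.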

Additional observations from a re-analysis of the deposited data

Results flagged for a closer look

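5 differences between fractions in the effect of the genotype passed the interaction test of edgeR. The effect on *Sv2a* was lower in microglia than in astrocytes by -1.99 on the log2 scale, and that on *Ppfia4* was higher in microglia by 3.16. Against astrocytes the effect in neurons was higher by 2.95 for *Rims1*, by 2.25 for *Bsn* and by 5.44 for *Ppfia4*, the last with 1 read in the WT neuronal libraries.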

How the results depend on the processing

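No member called between genotypes, or for a difference in the KIN effect, changed its direction under any alternative run. Between WT fractions *Unc13c* did, from 1.88 higher in neurons than in astrocytes to -2.4 without WT neuronal replicate 2, against 2.4 at the highest without another library. The median of the members changed sign in neurons without WT replicate 1 (0.26) and without KIN replicate 2 (0.03), from -0.18, and for the KIN effect of microglia against astrocytes with a mean of at least 10 reads (-0.04), without KIN astrocyte replicate 1 (-0.01), without WT microglia replicate 2 (-0.05) and without WT replicate 2 of both fractions (-0.09), from 0.13. With DESeq2, 11 members were lower in KIN astrocytes and 3 in KIN microglia, 7 lower and 0 higher in WT neurons than in WT astrocytes, 0 higher in WT neurons than in WT microglia, and 0 had a higher KIN effect in neurons than in astrocytes. Over all genes DESeq2 called 256 lower and 96 higher in astrocytes against 752 and 285 with edgeR, 15 and 23 against 84 and 80 in microglia, and 0 and 0 against 1 and 0 in neurons. In microglia 3 members were lower with a mean of at least 10 reads, 11 with no filter and 4 by transcripts, whose median was -0.54. Of all genes, 0.611% were lower with this mean and 0.769% with no filter, and of all transcripts 0.418% were. In neurons 1 was lower with no filter and 1 with all libraries in one fit, *Unc13c* with 33 of 34 WT reads in replicate 2. Higher in WT neurons than in WT astrocytes were 0 with thinned libraries. Higher than in WT microglia were 2 with no filter or all 18 libraries in one fit, and 0 with thinned libraries, a mean of at least 10 reads, coding transcripts or transcripts. The KIN effect was lower in microglia than in astrocytes for 2 members by transcripts, and higher for 2 without WT replicate 2 of both fractions. For neurons against astrocytes it was higher for 0 with thinned libraries or transcripts, beside 0.154% of all genes and 0.559% of all transcripts. With a mean of at least 10 reads it was higher for 1, beside 0.837% of all genes. The medians were 1.35 and 1.37 in the thinned libraries and by transcripts. The cause of these shifts was not tested.

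Leaving out 1 library at a time gave, for astrocytes, 15 to 24 lower and medians from -1.52 to -1.01, for microglia 2 to 14 lower and medians from -1.52 to -0.56, and for neurons medians from -0.18 to 0.26. Between WT fractions it gave 9 to 17 lower and 0 to 1 higher in neurons than in astrocytes (medians -1.58 to -0.88), 3 to 4 lower and 0 to 1 higher in neurons than in microglia (-0.78 to -0.15), and 6 to 19 higher and 1 lower in astrocytes than in microglia (0.46 to 1.09). For the KIN effect it gave 1 to 2 higher and 1 lower in microglia than in astrocytes (-0.05 to 0.37), 0 to 6 higher in neurons than in astrocytes (0.63 to 1.37), and medians from 0.56 to 1.38 for neurons against microglia.

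The deviations of KIN and WT libraries with the same replicate number correlated at -0.141 to 0.0942, those of WT astrocytes and WT microglia at 0.0664 to 0.253, those of WT astrocytes and WT neurons at 0.000995 to 0.0397 and those of WT microglia and WT neurons at -0.014 to -0.0029. The fractions were isolated from the same brains, but the labels do not say that equal numbers mark the same brain. In none of these did all pairs exceed 0.1, and the numbers were not taken as pairs. WT astrocyte replicate 2 correlated at 0.253 with WT microglia replicate 2 and at -0.121 and -0.215 with replicates 1 and 3. WT astrocyte replicate 1 correlated most with WT microglia replicate 3, at 0.111. The tests between fractions and the interaction tests thus treated libraries that may share a brain as independent. With the number as a replicate block, 20 members were lower and 1 higher in astrocytes, beside 7.35% and 2.83% of all genes. In microglia 8 were lower and in neurons 0, beside 0.684% and 0.0148% of all genes. In WT neurons 11 were lower and 0 higher than in WT astrocytes, beside 9.79% and 5.5%. Against WT microglia 3 were lower and 0 higher, beside 10.2% and 5.33%. The WT neuronal libraries held the fewest counts, and 18 of the 37 members did not pass the filter for the genotype comparison in neurons.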
